A study of Mus musculus and Rattus norvegicus with 79 samples.

Results

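The genes described here encode the proteasome of mouse liver: the 7 alpha and 7 beta subunits of its core particle, 17 subunits of its regulatory particle (6 ATPases and 3 other subunits of the base, and 8 subunits of the lid), the 4 activator subunits Psme1 to Psme4, and Nfe2l1, a transcription factor of proteasome genes. These 36 genes of 24790 in the mouse count tables were chosen by name, with earlier results of these data known. All 36 passed the filter on low counts in both experiments. Liver RNA of C57BL/6 mice without injection was sequenced in 9 groups of 3 libraries: unfed at ZT10, and either fed or unfed at each of ZT13, ZT14, ZT18 and ZT22. Zeitgeber time (ZT) is the hour since the lights came on, with lights off from ZT12, and all mice were trained to eat at night. Liver RNA of Nr3c1fl/fl mice was sequenced in 12 groups of 3, with ribosomal RNA removed, 10 days after injection of AAV-tbg-GFP (control) or AAV-tbg-CRE, without food at ZT10 or ZT12 and with food at the 4 later hours. Every mouse of that experiment carries the floxed allele of Nr3c1, the gene of the glucocorticoid receptor (GR), and a virus. The tbg promoter is active in hepatocytes, so the other liver cells of CRE livers keep GR. GR chromatin immunoprecipitation (ChIP) was done in unfed liver at ZT10, with 1 GR library and 1 input library of C57BL/6 mice without injection, and 1 GR library each of Nr3c1fl/fl mice 10 days after AAV-tbg-GFP and after AAV-tbg-CRE. The labels used here say neither the age nor the sex of the mice.

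The proteasome is the cell's main protease for ubiquitin-tagged proteins. Its core particle is a barrel of alpha and beta rings in which 3 beta subunits cut peptide bonds, and the regulatory particle caps the barrel, binds and removes ubiquitin, and unfolds the substrate with a ring of ATPases. Nfe2l1 is a protein of the endoplasmic reticulum that is pulled out and processed. When proteasome activity is short, it binds antioxidant response elements in front of proteasome genes. Psme1 and Psme2 form an alternative cap that interferon raises, and immunoproteasomes carry Psmb8, Psmb9 and Psmb10 in place of the standard catalytic subunits. In liver, as elsewhere, the system clears short-lived and misfolded proteins.

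Upstream sequences bear on these genes in 2 ways here, through letters of the element that Nfe2l1 binds and through GR peaks. RefSeq promoter windows (assembly GRCm38.p6, 250 bases before each start) matched 30 of the 36 genes with 37 windows. Some of these windows, such as those of Psmd2 and Psma3, lie inside the gene interval of the gene table. Both strands were searched for TGACNNNGC, the core of the antioxidant response element, which stood in 4 of the 37 windows (10.8%) and in 10.2% of all 32851 windows. Those 4 windows belong to Psmb5, Psmb6, Psmc6 and Psmd12. They are shown because Nfe2l1 is one of the genes described. Capitals mark the match, on either strand. The Psmb6 window is not shown, since its last 33 bases, which hold the match, lie inside the gene interval of the gene table.
Psmb5, chr14:54617996-54618245, minus strand: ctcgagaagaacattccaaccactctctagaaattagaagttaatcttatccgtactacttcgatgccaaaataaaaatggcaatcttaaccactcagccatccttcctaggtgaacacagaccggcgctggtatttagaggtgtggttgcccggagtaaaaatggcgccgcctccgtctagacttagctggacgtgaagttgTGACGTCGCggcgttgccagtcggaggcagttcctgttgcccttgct
Psmc6, chr14:45329574-45329823, plus strand: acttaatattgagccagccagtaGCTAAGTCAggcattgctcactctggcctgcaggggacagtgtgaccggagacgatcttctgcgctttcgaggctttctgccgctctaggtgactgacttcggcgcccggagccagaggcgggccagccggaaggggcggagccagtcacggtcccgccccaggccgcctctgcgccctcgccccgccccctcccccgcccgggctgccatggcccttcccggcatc
Psmd12, chr11:107479278-107479527, plus strand: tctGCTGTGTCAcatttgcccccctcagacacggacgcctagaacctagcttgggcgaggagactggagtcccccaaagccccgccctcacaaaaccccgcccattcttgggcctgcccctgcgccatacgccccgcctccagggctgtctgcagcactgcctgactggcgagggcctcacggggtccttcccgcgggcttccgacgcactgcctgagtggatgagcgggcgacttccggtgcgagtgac
The match begins 47 bases before the start in Psmb5, 227 in Psmc6 and 247 in Psmd12.

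The Psme4 window is shown for the other reason: of the 37 windows it was the 1 that overlapped a GR peak of the list deposited as concordant between replicates, against 0.682% of all windows. Psme4 encodes an activator that binds the core particle in the nucleus. Capitals mark its 100 bases inside the peak chr11:30771416-30771624. The last line is Psmd14, which of the 36 genes had the lowest adjusted p between fed and unfed livers, with its 1 CCAAT box (read as ATTGG on this strand) in capitals.
Psme4, chr11:30771525-30771774, plus strand: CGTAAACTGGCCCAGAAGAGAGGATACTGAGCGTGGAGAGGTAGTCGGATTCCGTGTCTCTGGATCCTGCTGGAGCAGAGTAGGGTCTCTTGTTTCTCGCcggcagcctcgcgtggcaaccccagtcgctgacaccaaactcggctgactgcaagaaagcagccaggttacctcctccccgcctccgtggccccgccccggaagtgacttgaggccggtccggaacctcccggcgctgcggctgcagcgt
Psmd14, chr2:61711444-61711693, plus strand: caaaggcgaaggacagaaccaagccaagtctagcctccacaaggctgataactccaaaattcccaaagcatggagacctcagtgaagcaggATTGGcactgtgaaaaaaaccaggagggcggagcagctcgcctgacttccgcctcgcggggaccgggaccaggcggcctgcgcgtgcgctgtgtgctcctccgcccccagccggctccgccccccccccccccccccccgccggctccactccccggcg
CCAAT stood in 15 of the 37 windows (40.5%), which belong to 12 of the 30 genes, and in 33.8% of all windows. Some of the 15 are overlapping windows of Nfe2l1. The interferon letters GAAANNGAA stood in 2 windows (5.41%, against 7.13%). TTCNNNGAA, the core of STAT sites, and ACANNNTGT, a pair of GR half-sites, stood in none (7.02% and 5.84% of all windows). These are matches of letters in windows of 250 bases and not binding sites.

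Libraries held 23.87 to 91.77 M counts in C57BL/6 livers and 34.64 to 78.76 M in Nr3c1fl/fl livers. A row that the gene table does not name, NR_046233, took 0.096% to 2.05% of counts in the former and 2.23% to 28.5% in the latter, where 6 libraries exceeded 20%: 5 of unfed GFP and 1 of unfed CRE livers. Levels below are CPM, counts scaled to a common normalised library total, and differences are log2 fold changes ± SE from edgeR's quasi-likelihood test. A gene passed the test, and is said to have risen or fallen, when its p adjusted over all tested genes was under 0.05. As a check of the labels, Nr3c1 was lower in the libraries labelled CRE than in those labelled GFP at every time, by a mean of -0.63 ± 0.06 (adjusted p = 1.85e-09). At ZT10 it was at 115, 137 and 147 CPM with CRE and 241, 196 and 234 with GFP. Proteasome genes were among the well-measured genes: their mean level per gene ran from 32.5 (Psma5) to 186 CPM (Psmd2) in C57BL/6 livers, with a median of 77.1 against 14.04 over all 14744 genes tested, and had a median of 41.3 against 12.5 over 15712 in Nr3c1fl/fl livers. Labels do not say whether libraries of a group came from separate mice, so p-values measure the spread between these libraries. In whole liver, fewer cells of a type and less RNA per cell cannot be told apart.

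The first comparison asks how food changes these mRNAs at a given hour. In the mean of the 4 hours at which both were sampled, mRNA of 13 proteasome genes was more abundant in fed than in unfed C57BL/6 liver, with changes of 0.11 to 0.33, and that of Nfe2l1 was less abundant. The 13 are 36.1% of the 36 genes, beside 17.5% of all tested genes that were higher; the 1 lower gene is 2.78%, beside 17.9%. The median difference of the 36 genes was 0.09 (all tested genes 0.01), and 29 of 36 values were above 0. The genes that rose were 3 of 7 alpha subunits, 5 of 7 beta subunits, 2 of 6 ATPases, none of the 3 other base subunits, 1 of 8 lid subunits and 2 of 4 activators. Whether these shares differ between roles was not tested.

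**Figure D1:**
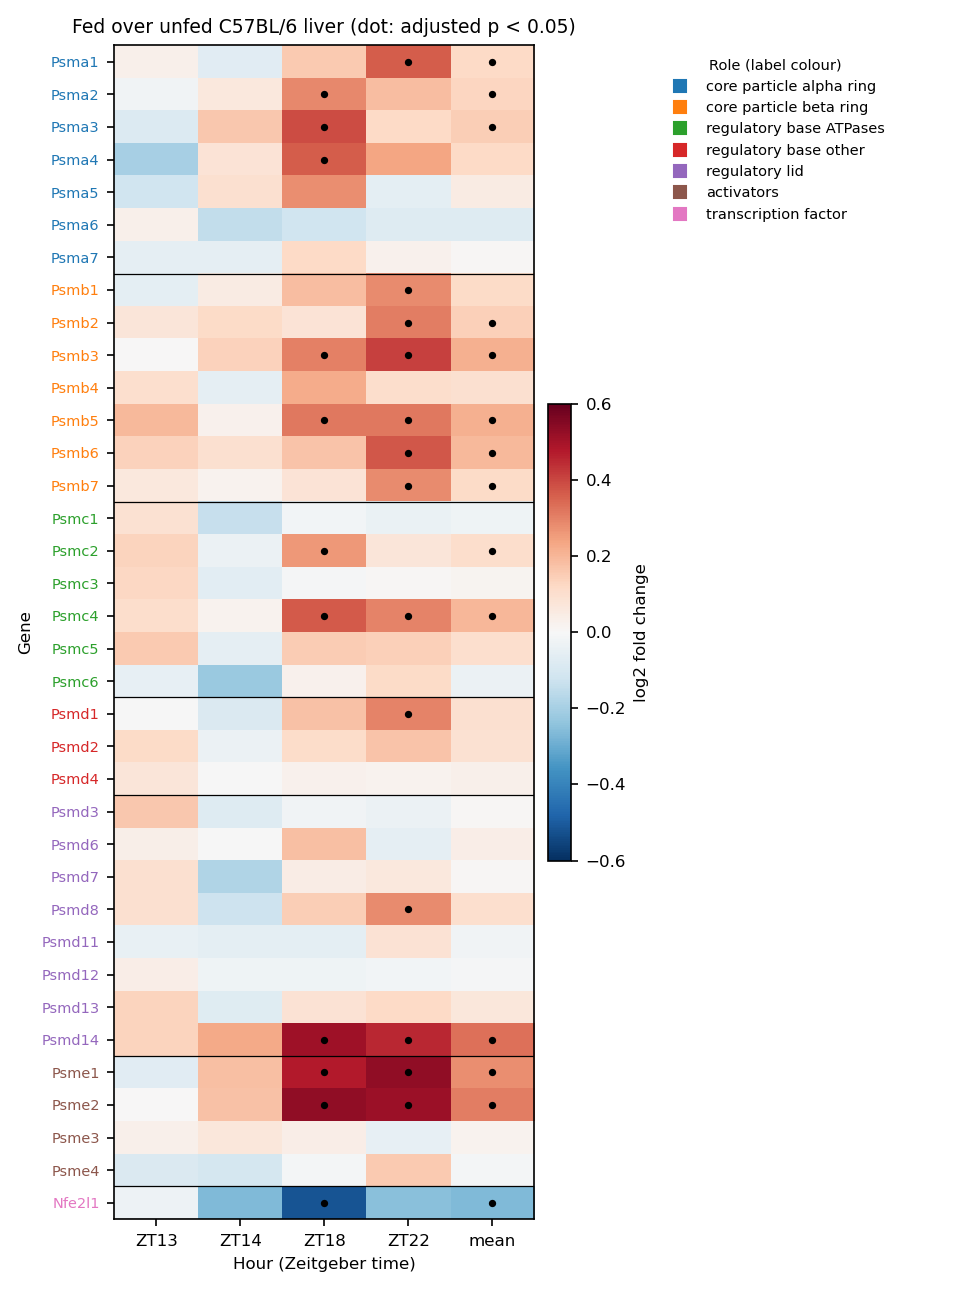
Log2 fold change of fed over unfed C57BL/6 liver for each proteasome gene (rows, label colour by role) at 4 hours and as their mean (columns, 3 libraries per group and hour); colour is the log2 fold change and a dot marks adjusted p under 0.05. No dot stands at ZT13 or ZT14, 11 at ZT18 and 13 at ZT22, and Nfe2l1 at the bottom is the one gene with a dot on the negative side.

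Each hour was also tested alone. At ZT13 no proteasome gene passed the test (0 also at an unadjusted p under 0.05, and 0 with DESeq2), where 0.468% of all genes were higher and 0.631% lower. At ZT14 none passed either (4 at an unadjusted p under 0.05, 0 with DESeq2), where 2.26% were higher and 3.38% lower. At ZT18, 10 genes rose (27.8%, beside 13.3% of all genes) and Nfe2l1 fell (beside 13.1%). At ZT22, 13 rose (36.1%, beside 10.5%) and none fell (beside 9.77%). The lowest fed library stood above the highest unfed one for 8, 3, 10 and 16 genes at the 4 hours in turn. The reverse order held for 0, 3, 1 and 1 genes. Separation of libraries was not counted over all tested genes, so these counts have no background share and are descriptive only. The count at ZT18 was 4 without fed replicate 1, 6 without unfed replicate 1 and 7 without unfed replicate 3 or fed replicate 2, and that at ZT22 was 5 without unfed replicate 3, 7 without fed replicate 1 and 8 without unfed replicate 2. In fits of the 2 groups alone it was 5 at either hour, and at ZT22 it was 8 with no filter on low counts.

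Among the core particle's beta subunits, the catalytic ones were Psmb5 (chymotrypsin-like), Psmb6 (caspase-like) and Psmb7 (trypsin-like). Psmb5 was at 77.9, 71.4 and 62.3 CPM in fed and 57.1, 56.5 and 56.2 in unfed livers at ZT18, and at 60.2, 62.1 and 53.3 against 50.3, 49.9 and 40.8 at ZT22. At both hours all fed libraries were above all unfed ones, and the gene rose by 0.32 ± 0.11 at either hour (adjusted p = 0.0273 and 0.036). Psmb6 was at 99.8, 91.5 and 80.1 CPM in fed and 78.1, 71.3 and 60.3 in unfed livers at ZT22, a rise of 0.37 ± 0.11 (adjusted p = 0.018), and Psmb7 rose by 0.28 ± 0.09 at that hour (adjusted p = 0.0187). Averaged over the 4 hours the 3 genes rose by 0.21, 0.19 and 0.11. The call for Psmb7 in this mean was lost in 15 of 30 other settings, that for Psmb5 and Psmb6 in none. Of the structural beta subunits, Psmb3 was at 55.5, 50.5 and 49.2 CPM fed and 41.6, 39.0 and 36.1 unfed at ZT22 without overlap, and rose by 0.41 ± 0.11 (adjusted p = 0.00834). Psmb2 rose by 0.31 ± 0.08 and Psmb1 by 0.28 ± 0.10 at ZT22, while Psmb4 was at 0.10 ± 0.09 (adjusted p = 0.474). So 6 of the 7 beta subunits passed at ZT22, and 2 of 7 (Psmb3 and Psmb5) at ZT18.

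The alpha subunits form the outer rings and the gate of the barrel. At ZT18 Psma3 was at 97.2, 88.3 and 66.6 CPM in fed and 64.5, 62.9 and 64.7 in unfed livers, with no overlap, and rose by 0.39 ± 0.11 (adjusted p = 0.00863). Psma4 rose by 0.36 ± 0.12 and Psma2 by 0.29 ± 0.10 there; fed replicate 3 was the lowest fed library of both, and for each it lay within the range of the unfed libraries. At ZT22 Psma1 was at 102, 95.9 and 108 CPM in fed and 84.4, 73.8 and 80.1 in unfed livers, all fed above all unfed, and rose by 0.36 ± 0.07 (adjusted p = 6.96e-04). Fed libraries of Psma1 at ZT18 and of Psma2 and Psma4 at ZT22 were also all above the unfed ones, without passing the test. Psma5, Psma6 and Psma7 had averages over the 4 hours of 0.05, -0.08 and 0.01 and passed at no hour.

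In the regulatory particle, 1 ATPase and 1 lid subunit stood out by size. Psmd14 encodes the metalloprotease of the lid that cleaves ubiquitin chains off the substrate. It was at 72.2, 64.0 and 56.4 CPM in fed and 42.1, 48.8 and 44.4 in unfed livers at ZT18, and at 66.2, 55.5 and 62.8 against 49.8, 41.7 and 43.6 at ZT22. Fed libraries were above unfed ones without overlap at all 4 hours, and Psmd14 rose by 0.51 ± 0.09 at ZT18 (adjusted p = 1.7e-04), 0.45 ± 0.09 at ZT22 and 0.33 ± 0.05 in the mean (adjusted p = 3.29e-06). Psmc4, an ATPase, was at 92.1, 86.8 and 81.5 CPM fed and 67.9, 67.7 and 66.1 unfed at ZT18. Its groups did not overlap there, and it rose by 0.37 ± 0.09 (adjusted p = 0.00346). Psmc2, a further ATPase, was at 103, 90.9 and 89.5 CPM fed and 76.8, 79.6 and 79.7 unfed at that hour and rose by 0.26 ± 0.08. The ATPases Psmc1, Psmc3, Psmc5 and Psmc6 had averages of -0.03, 0.01, 0.10 and -0.03, which did not pass.

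Among the other base subunits, the scaffold Psmd1 rose at ZT22 by 0.30 ± 0.10, whereas the scaffold Psmd2 and the ubiquitin receptor Psmd4 were at 0.17 ± 0.09 and 0.02 ± 0.09. Of the other lid subunits Psmd8 rose at ZT22 by 0.28 ± 0.10. Psmd3, Psmd6, Psmd7, Psmd11, Psmd12 and Psmd13, which brace the lid, had averages over the 4 hours between -0.02 (Psmd11) and 0.07 (Psmd13), and none passed at any of the 4 hours. Psmd11 at ZT18 was at 91.7, 86.7 and 76.8 CPM in fed and 81.9, 90.9 and 93.3 in unfed livers, which overlap.

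Psme1 and Psme2, the subunits of the interferon-raised cap, had the highest log2 changes of the 36 genes at ZT18 and ZT22 with Psmd14. Psme1 was at 76.2, 64.7 and 49.8 CPM fed and 44.6, 48.6 and 43.9 unfed at ZT18, and at 57.2, 53.2 and 49.4 against 35.8, 41.4 and 33.5 at ZT22. Its groups did not overlap at either hour, and it rose by 0.48 ± 0.12 (adjusted p = 0.00346) and 0.53 ± 0.12 (adjusted p = 0.00192). Psme2 was at 45.7, 46.9 and 34.9 CPM fed and 29.1, 31.5 and 27.5 unfed at ZT18, and at 34.7, 39.4 and 35.3 against 27.9, 25.3 and 23.4 at ZT22. All fed libraries were above all unfed ones, and the gene rose by 0.53 ± 0.11 (adjusted p = 9.73e-04) and 0.51 ± 0.11 (adjusted p = 0.00191). Without fed replicate 1 the call for Psme1 at ZT18 was lost. Psme3, the subunit of the nuclear cap, was at 53.6, 55.6 and 55.1 CPM fed and 54.7, 53.4 and 51.8 unfed at ZT18. Psme4 was at 154, 149 and 177 against 157, 175 and 151. Both overlap, and their averages over the 4 hours were 0.02 ± 0.04 and -0.01 ± 0.05.

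Nfe2l1 went the other way. It was at 107, 125 and 149 CPM in fed and 183, 164 and 198 in unfed livers at ZT18, with no overlap, and fell by 0.52 ± 0.11 on the log2 scale (adjusted p = 7.08e-04). In the mean over 4 hours it fell by 0.27 ± 0.05 (adjusted p = 2.86e-04). At ZT14 its fed libraries were at 145, 145 and 153 and its unfed ones at 181, 174 and 177 CPM. They did not overlap, but the difference of -0.26 ± 0.11 did not pass (adjusted p = 0.15). At ZT22 the difference was -0.25 ± 0.11 (adjusted p = 0.0942) and also not past the threshold.

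**Figure D2:**
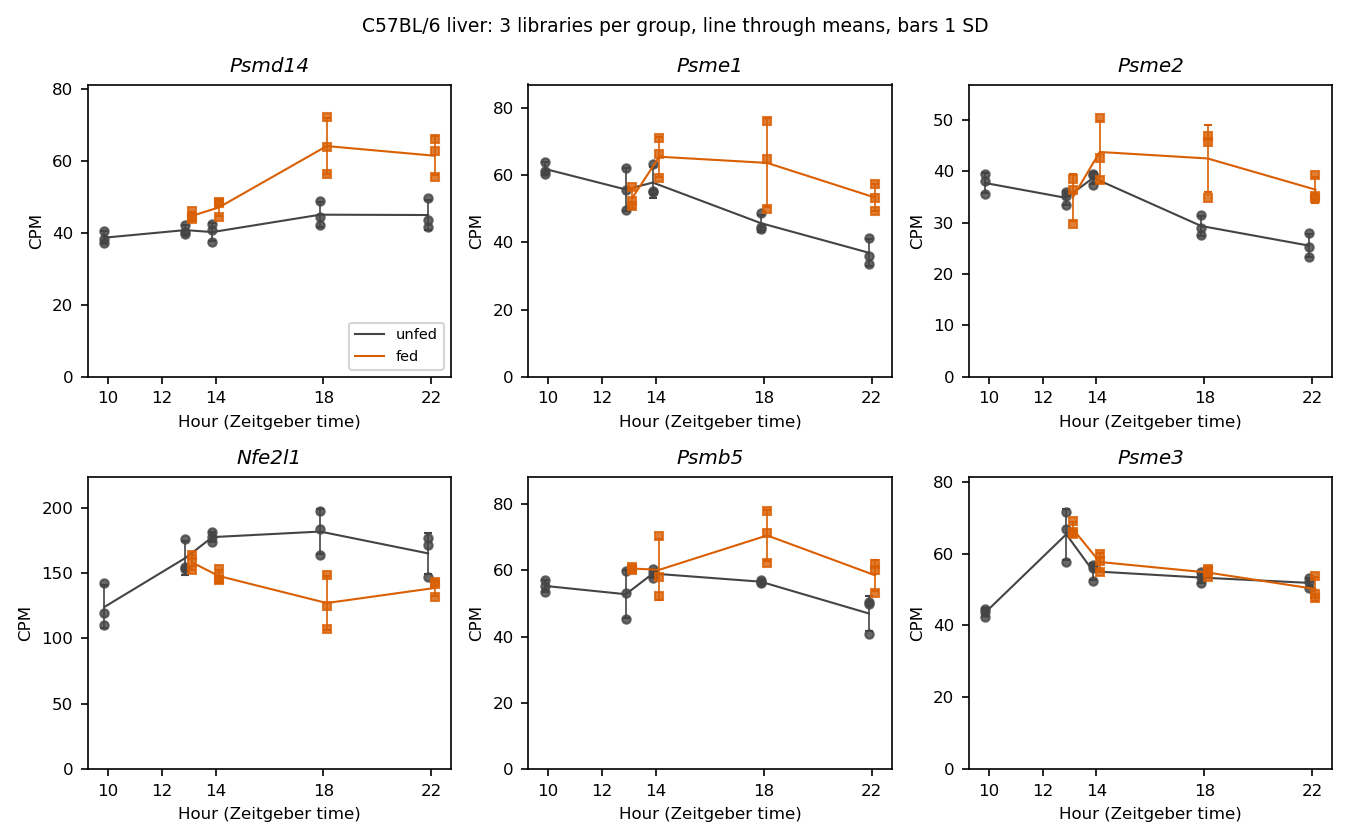
Level in CPM against hour for 6 genes in fed (squares) and unfed (circles) C57BL/6 liver; points are libraries (3 per group), lines join group means and bars are 1 SD. Fed and unfed values of Psmd14, Psme1 and Psme2 part at ZT18 and ZT22, and the Psme3 values of both groups lie together. Fed Nfe2l1 libraries lie below unfed ones at ZT14, ZT18 and ZT22 and overlap them at ZT13.

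Genes that act with the proteasome are set beside the 17.5% of all genes that were higher and the 17.9% that were lower in the 4-hour mean. Of 8 assembly chaperones, Pomp rose by 0.27 ± 0.04 in the 4-hour mean, Psmg3 by 0.26 ± 0.08 and Psmd5 by 0.14, and Psmd9, a chaperone of the base, fell by 0.44 ± 0.06. Of the 3 immunoproteasome subunits Psmb9 (0.50 ± 0.13) and Psmb10 (0.29 ± 0.06) rose, while Psmb8 was at 0.18 ± 0.08 (adjusted p = 0.104). Psmb9 was at 8.90, 6.32 and 6.36 CPM in fed and 4.88, 3.49 and 2.70 in unfed livers at ZT18, without overlap. Of 7 other proteasome-bound proteins Sem1 and Usp14 rose and Ecpas fell. Of 10 ubiquitin and shuttle genes 4 rose and 1 fell: Rad23b, a shuttle of ubiquitin-tagged proteins, rose by 0.22 ± 0.04, Rps27a by 0.26 ± 0.07, and Ubb, a ubiquitin gene, fell by 0.44 ± 0.09. Of 10 genes that process or partner Nfe2l1, 1 rose and 5 fell. These include Ddi2, the protease that activates Nfe2l1, which fell by 0.28 ± 0.05, the small Maf factor Maff, which fell by 0.99 ± 0.13, and the ubiquitin ligase Syvn1, which rose by 0.78 ± 0.12. Each gene was compared on its own, and the lists were not tested as groups.

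Other gene groups moved with these changes. Of 16 interferon-induced genes 8 were higher and 1 lower in the 4-hour mean, 7 higher at ZT18 and 7 at ZT22; Psmb8 and Psmb9 are on that list. Summed over the list, fed libraries held 2265 to 2438 CPM and unfed ones 2366 to 2624 at ZT18, and 2498 to 3034 against 2073 to 2771 at ZT22. Endothelial markers fell for 9 of 10 genes in the 4-hour mean and at ZT18, where they summed to 279.6 to 299 CPM in fed and 386.3 to 418.9 in unfed livers; 4 of 10 fell at ZT22. Of 9 hepatocyte markers 2 rose and 2 fell in the mean, and their sums at ZT18 overlapped (115500 to 140100 fed, 110900 to 124500 unfed). Of 8 stellate cell markers 3 rose in the mean and none passed at ZT18 or ZT22. Of 11 Kupffer cell markers none passed in the mean or at ZT18, and 1 fell at ZT22. No endothelial, hepatocyte, Kupffer or interferon gene of the lists was at 0 in any library. Pancreatic acinar markers summed to 5.62 to 174.1 CPM in unfed livers at ZT18, with replicate 3 the high one, and 6.26 to 7.84 in fed ones. The part of these groups in the proteasome values was not tested. Bile duct markers summed to 20.09 to 103.8 CPM in fed livers at ZT14 and acinar markers to 3.86 to 20.78, with replicate 1 the high library in both. Without that library and unfed ZT18 replicate 3 the mean called 17 proteasome genes and ZT18 called 8.

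Whether the food difference changed with the hour was tested by an interaction, which 1 of 36 genes passed (2.78%, beside 8.1% of all genes). That gene was Psma1, with -0.07 at ZT14 and 0.36 at ZT22 (adjusted p = 0.0315). The call was lost in 16 of 30 other settings. Those include the fit without fed ZT14 replicate 1 and unfed ZT18 replicate 3, where no gene passed, and the count reached 6 without fed ZT18 replicate 3. For the other genes a difference in size between hours was not shown, whichever hours passed on their own.

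The second question is how the mRNAs vary over the hours. In unfed C57BL/6 livers 17 of 36 genes passed a test over 5 hours (47.2%, beside 42.5% of all genes), and in fed livers 16 passed over 4 hours (44.4%, beside 37.2%). Both shares lie near those of all genes. The count for unfed livers was 11 without ZT10 replicate 1, ZT14 replicate 2 or ZT22 replicate 3, and 11 with no filter on low counts. The ranges were small: between the highest and the lowest hour the group means differed 1.21-fold in the median gene when unfed (1.06 to 1.67) and 1.23-fold when fed (1.01 to 1.52). In unfed livers the lowest mean was at ZT10 for 17 genes and at ZT22 for 14. Psmd11, a lid subunit that stabilises the assembled particle, had the lowest adjusted p on either side (1.1e-05 unfed, 6.0e-06 fed). It went from 62.8, 62.1 and 68.9 CPM at ZT10 to 98.0, 88.0 and 93.3 at ZT22 in unfed livers, and from 66.1, 62.8 and 66.6 at ZT13 to 99.0, 90.2 and 107 at ZT22 in fed ones. The earlier and later libraries do not overlap on either side, and this gene did not pass between fed and unfed livers at any hour. In unfed livers the hour and the length of the fast change together and cannot be told apart. Psme3 was at 44.7, 42.5 and 43.7 CPM in unfed livers at ZT10 and at 71.7, 66.7 and 57.7 at ZT13 (adjusted p = 2.3e-05 over 5 hours). Its peak at ZT13 was also present in fed livers (65.4, 69.2 and 66.0 CPM, against 47.7, 48.8 and 53.9 at ZT22). Psme1 in unfed livers was lower at ZT22 (35.8, 41.4 and 33.5 CPM) than at ZT10 (60.2, 64.0 and 61.2), with an adjusted p of 9.2e-05.

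The third comparison asks what changes when hepatocytes are given CRE. Averaged over 6 times, 8 proteasome genes were lower in CRE than in GFP livers and Nfe2l1 was higher, all by small amounts. The 8 are 22.2% of the 36 genes, beside 6.64% of all genes that were lower, and the 1 higher gene is 2.78%, beside 7.92%. The median of the 36 values was -0.07 (all tested genes 0.00) and 6 of 36 were above 0. By role, the ATPases were lower in 3 of 6 cases: Psmc5 fell by 0.22 ± 0.05 (adjusted p = 0.00391), Psmc4 by 0.16 ± 0.04 (adjusted p = 0.0113) and Psmc1 by 0.15 ± 0.04 (adjusted p = 0.0169). In the core particle Psma6, Psmb1 and Psmb7 fell by 0.10, 0.09 and 0.11. In the lid Psmd12 fell by 0.14 ± 0.04, and among the activators Psme3 fell by 0.12 ± 0.04. Nfe2l1 rose by 0.16 ± 0.05 (adjusted p = 0.0196). Psmb5 was at -0.10 ± 0.05, Psmd11 at -0.07 ± 0.04, Psme1 at 0.12 ± 0.05 and Psme4 at -0.02 ± 0.04, none past the threshold.

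The number past the threshold depended on which libraries were used. Without ZT10 and without the libraries over 20% of NR_046233, 2 choices changed together, 2 genes passed, Psmc1 at -0.17 and Psmc5 at -0.21, which leaves a single unfed GFP library. There Psmc4 was at -0.13, Psmd12 at -0.09, Psme3 at -0.07 and Nfe2l1 at 0.14, none past the threshold. With the share of NR_046233 as a covariate 6 genes passed, and with no filter on low counts 5. Hepatocyte markers were lower in CRE livers in 5 of 9 cases. They summed to 50720 to 75560 CPM over the 18 CRE libraries and 57600 to 84550 over the 18 GFP libraries. No Kupffer, endothelial or stellate marker passed in this mean, and 3 of 16 interferon-induced genes rose. Their part in the proteasome values was not tested.

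**Figure D3:**
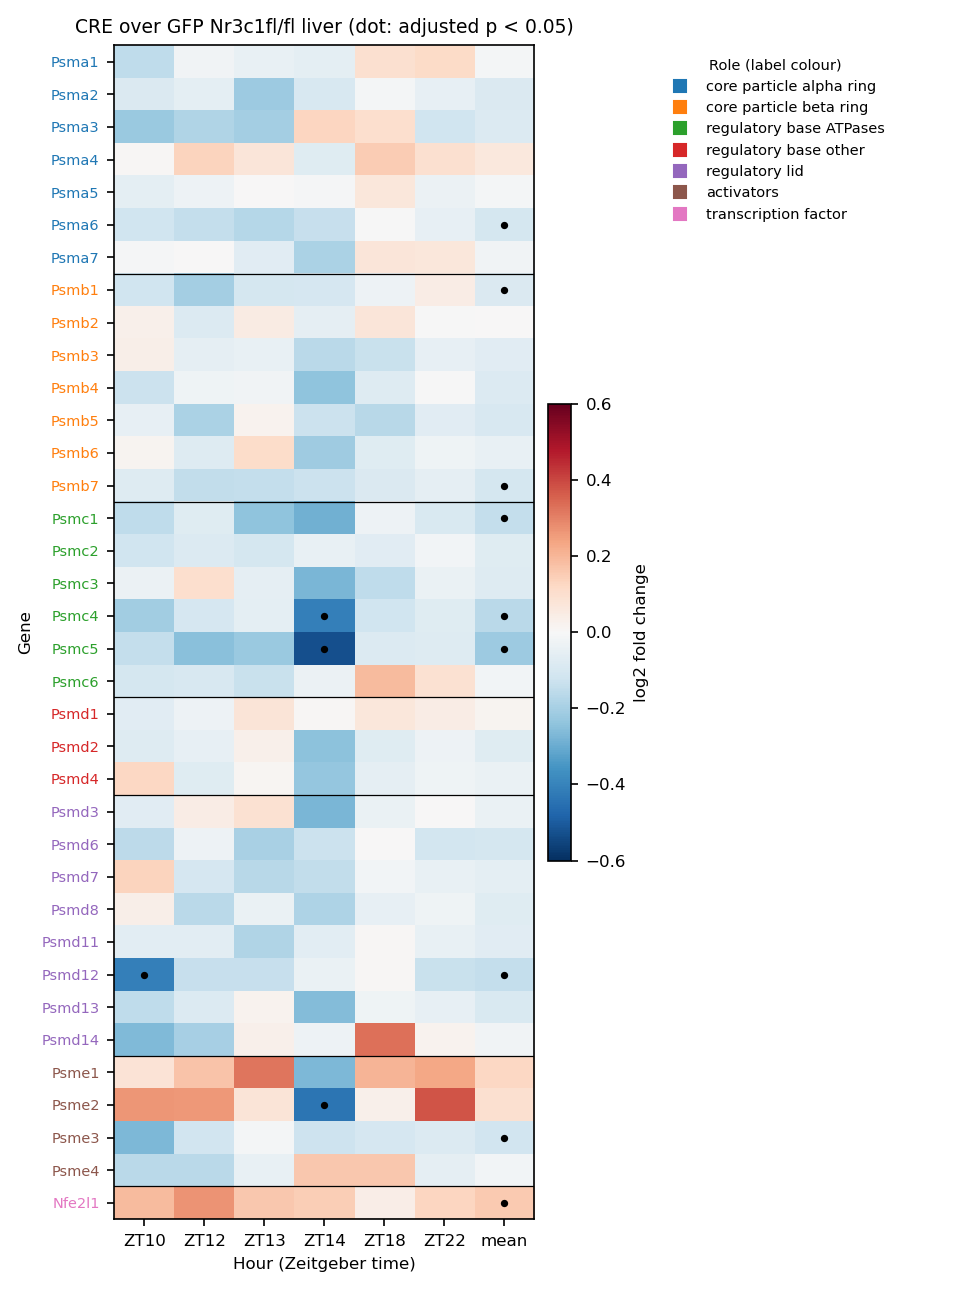
Log2 fold change of CRE over GFP Nr3c1fl/fl liver for each proteasome gene (rows, label colour by role) at 6 times and as their mean (columns, 3 libraries per group and time); a dot marks adjusted p under 0.05. Dots stand at Psmd12 at ZT10, at Psmc4, Psmc5 and Psme2 at ZT14 and at 9 genes in the mean, and most cells are pale.

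At single times few genes passed. At ZT10 it was Psmd12 (1 of 36 lower, beside 0.471% of all genes lower and 0.223% higher). Psmd12 was at 35.96, 35.96 and 32.2 CPM in CRE and 44.3, 45.1 and 49.1 in GFP livers. The groups did not overlap and it fell by 0.41 ± 0.10 (adjusted p = 0.0343), but it passed in no fit that left out 1 of these 6 libraries. At ZT12 none passed (3 at an unadjusted p under 0.05; 1.5% of all genes higher, 2.25% lower), nor at ZT13 (5; 1.89% higher, 3.15% lower). At ZT14, the hour with the lowest median (-0.13), 3 genes fell (8.33%, beside 0.987% lower and 0.586% higher). At ZT18 none passed (1 at an unadjusted p under 0.05; 0.0382% of all genes higher, 0.0636% lower), nor at ZT22 (1; 0.0891% and 0.0573%). DESeq2 called none of the 36 genes at these 4 times either. All CRE libraries lay below all GFP libraries for 5, 5, 7, 13, 0 and 0 genes at the 6 times in turn. They lay above for 1, 1, 2, 0, 5 and 1 genes. Here too no count over all tested genes was made, so these numbers have no background share.

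The 3 genes of ZT14 are 2 ATPases and an activator. Psmc5 was at 19.4, 24.1 and 24.1 CPM in CRE and 34.3, 29.6 and 33.3 in GFP livers and fell by 0.53 ± 0.13 (adjusted p = 0.0298). Psmc4 was at 27.2, 33.6 and 34.7 against 43.1, 38.3 and 45.6 CPM and fell by 0.41 ± 0.11 (adjusted p = 0.0454). Psme2 was at 13.4, 14.8 and 14.1 against 19.2, 19.4 and 18.8 CPM and fell by 0.44 ± 0.11 (adjusted p = 0.0352). In all 3 every CRE library was below every GFP library. The number of genes was 0 without GFP replicate 1 or 3 or any one CRE library, 2 without GFP replicate 2, 1 with no filter on low counts and 0 in a fit of the 2 groups alone. At this hour 3 of 16 interferon-induced genes (Irf7, Isg15 and Gbp3), 2 of 9 hepatocyte markers and 1 of 11 Kupffer cell markers also fell. Of the immunoproteasome subunits Psmb8 was at -0.81 and Psmb9 at -0.49, not past the threshold. Psmb8 stood at 10.04, 8.89 and 7.88 CPM in CRE and 22.5, 8.72 and 16.0 in GFP livers, which overlap. The part of these groups was not tested.

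Psme2 was the 1 gene of 36 whose CRE difference changed over the 6 times (2.78%, beside 0.687% of all genes; adjusted p = 0.038). Its difference was -0.44 at ZT14 and 0.38 ± 0.11 at ZT22, where CRE livers held 21.6, 18.8 and 20.9 CPM and GFP livers 15.7, 16.6 and 14.8. The groups do not overlap at either time, in opposite order. The interaction was lost in 24 of 42 other settings, among them the covariate for NR_046233 and the fit with no filter on low counts. Psme1 had values of 0.32 ± 0.12 at ZT13, -0.27 ± 0.12 at ZT14 and 0.23 ± 0.12 at ZT22, none past the threshold.

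**Figure D4:**
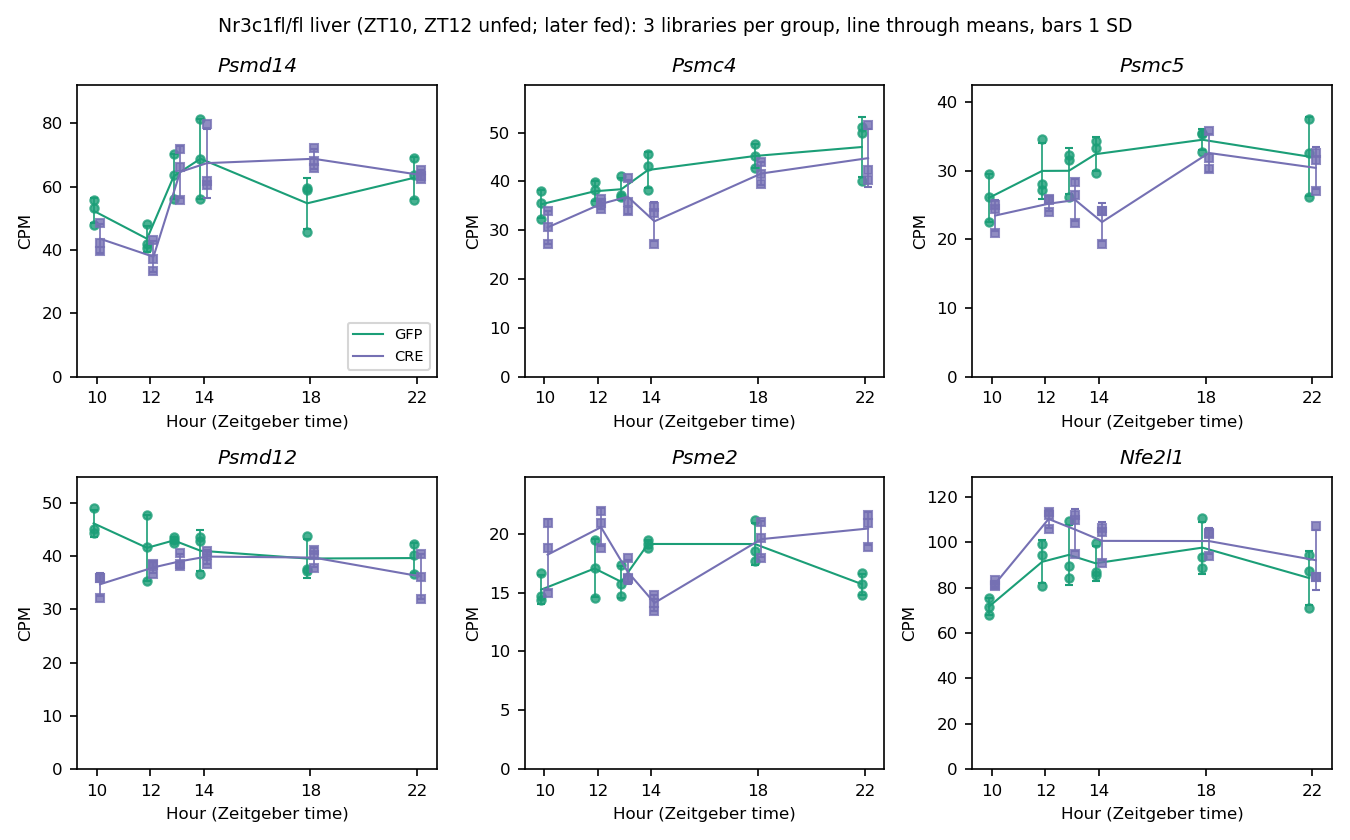
Level in CPM against hour for 6 genes in Nr3c1fl/fl liver with GFP (circles) or CRE (squares), unfed at ZT10 and ZT12 and fed later; points are libraries (3 per group), lines join group means and bars are 1 SD. Psmd14 is higher at the fed times with either virus, Psmc4, Psmc5 and Psme2 are lower with CRE at ZT14, and most other groups overlap.

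In this experiment food and hour change together, so they cannot be told apart in the change from unfed (ZT10, ZT12) to fed times. In GFP livers 7 proteasome genes were higher at the fed times (19.4%, beside 15.9% of all genes) and 2 lower (5.56%, beside 15.6%), and in CRE livers 6 were higher (16.7%, beside 15.6%) and 1 lower (2.78%, beside 15.5%). The shares of higher genes lie near those of all genes. Psmd14 had the lowest adjusted p on either side. In GFP livers it was at 48.2, 41.9 and 40.6 CPM at ZT12 and 56.0, 63.7 and 70.2 at ZT13, and in CRE livers at 37.1, 33.5 and 43.1 and 55.9, 66.1 and 72.0. ZT13 libraries were above ZT12 libraries without overlap in both, and ZT12 held the lowest group mean of the 6 times with either virus. Over all times Psmd14 was higher at the fed times by 0.38 ± 0.08 with GFP (adjusted p = 7.8e-04) and 0.70 ± 0.08 with CRE (adjusted p = 1.7e-07). The difference between those changes was 0.32 ± 0.12 and did not pass (adjusted p = 0.355). None of the 36 genes passed that test of the difference (4 at an unadjusted p under 0.05), which 0.0955% of all genes passed upward and 0.0318% downward; it was fitted with edgeR alone. Psmc4, Psmd1, Psmd11 and Psme3 were higher at the fed times in both GFP (0.24, 0.16, 0.18 and 0.17) and CRE livers (0.23, 0.25, 0.17 and 0.28). The GFP count was 3 with the covariate for NR_046233, 5 without ZT10 replicate 1 and 4 without ZT12 replicate 3. It was 0 without ZT10 and the libraries over 20%, where 1 unfed GFP library is left and Psmd14 was at 0.62.

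Over the 6 times 9 genes passed in GFP livers (25%, beside 46.9% of all genes) and 12 in CRE livers (33.3%, beside 41.5%). Group means differed 1.25-fold in the median gene with GFP (1.04 to 1.58) and 1.23-fold with CRE (1.1 to 1.82), and Psmd14 had the widest range in both. Psmd11 again was highest at ZT22, at 106, 102 and 105 CPM with GFP (77.4, 66.7 and 82.8 at ZT12) and 88.4, 113 and 101 with CRE (72.6, 74.3 and 70.8 at ZT12). Its adjusted p over the times was 5.2e-04 and 7.7e-05.

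Among the related genes, the CRE mean held higher Psmd5 (0.15), lower Pomp (-0.13 ± 0.05) and lower Psmd9 (-0.35 ± 0.05, adjusted p = 6.18e-06) of the 8 chaperones, higher Psmf1, an inhibitor of the core particle (0.15 ± 0.04), and lower Ubqln2 (-0.14 ± 0.04), a shuttle. Nfe2l2, a relative of Nfe2l1 that binds the same element, rose by 0.33 ± 0.06 (adjusted p = 8.94e-05). None of the 3 immunoproteasome subunits passed (Psmb8 -0.04, Psmb9 0.07 and Psmb10 0.16).

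GR peaks of unfed livers at ZT10 were set beside the genes within 25 kb of the gene interval. A peak of the list deposited as concordant between replicates lay near 7 of 36 genes (19.4%, beside 28.6% of all tested genes): Psma1, Psmb1, Psmb6, Psmb7, Psmd7, Psme3 and Psme4. It lay inside the gene for Psmb7 (chr2:38621188-38621396), 28 bases beyond the gene interval for Psmd7 (chr8:107588510-107588718) and 151 bases from the interval for Psme4. A second list, called against input, had peaks near 25 genes (69.4%, beside 62.0%). The third list, which used CRE liver chromatin as the control, had peaks near 34 (94.4%, beside 70.3%). In the 250-base windows, these lists overlapped 3 of 37 windows (2.43% of all windows) and 7 of 37 (4.92%). The 7 are windows of Psmc1, Psmc2, Psmc4, Psmd1, Psmd2, Psme3 and Psme4. Of the 8 genes that fell in the CRE mean, Psmb1, Psmb7 and Psme3 had a peak of the concordant list within 25 kb. Psma6, Psmc1, Psmc4, Psmc5 and Psmd12 had none of that list. All 8 had a peak of the third list within 25 kb, as did 34 of the 36 genes. The labels do not name the libraries that served as replicates for the concordant list. Near these genes every concordant peak has the coordinates of a peak of the third list and overlaps a peak of the second. The lists are therefore not independent. The peak lists hold positions with no height, so they give no strength of binding.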

How the data were processed

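Raw read counts per RefSeq transcript row were deposited by the authors in 1 table per mouse experiment, 27 libraries of C57BL/6 and 36 of Nr3c1fl/fl liver. The submitters' processing notes name STAR, HOMER, DESeq2 and the build mm10 without versions. No label says if the counting was strand-specific, so reads of overlapping antisense genes cannot be told apart. The labels mention ribosomal RNA removal for the Nr3c1fl/fl libraries. Of 40458 rows, 40219 matched a gene name (24790 genes, from a table of GRCm38.p6), and the row with the highest summed count stood for each gene, 7 of the 36 genes having several.

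Each experiment was fitted with all its groups by edgeR 4.0.16 (TMM scaling, filterByExpr, quasi-likelihood F-test, R 4.3.3), with Benjamini-Hochberg adjustment over all tested genes. The scripts were tested on simulated data. DESeq2 1.42.0, other scaling, no filter, a replicate block, other rows, fits of 2 groups, a covariate and left-out libraries were alternatives. Any of the 36 genes could be named. Values per library were given for up to 6 genes with the largest change among those past the threshold in a comparison (smallest adjusted p for tests over hours), for Nfe2l1, Psmb5, Psmd11, Psme1, Psme3 and Psme4, and for a few others chosen after their values were seen. Related lists give up to 3 genes by p, any immunoproteasome subunit, and those of small counts. The genes and lists were chosen with earlier results of these data known. Peak starts were read as counting from 0. The rat table is not used here.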

Additional observations from a re-analysis of the deposited data

Results flagged for a closer look

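Psma1, an alpha subunit of the core particle, had a food difference that varied among the 4 hours in C57BL/6 livers by the test of that difference (edgeR, adjusted p = 0.031541). Its difference was -0.07 at ZT14 and 0.36 at ZT22, and the call was lost in 16 of 30 other settings. Psme2, a subunit of the interferon-raised cap, had a CRE difference that varied among the 6 times (edgeR, adjusted p = 0.037965). That difference went from -0.44 at ZT14 to 0.38 at ZT22, and the call was lost in 24 of 42 other settings. Each was 1 of 36 genes (2.78%), beside 8.1% of all genes for food and 0.687% for CRE.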

How the results depend on the processing

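Single genes were followed into the alternative runs if they passed the threshold in the main fit. Nfe2l1, Psmb5, Psmd11, Psme1, Psme3 and Psme4 were also followed in every comparison that has a direction. Of the values followed, none that passed in the main fit or in the alternative run changed direction between them. Genes that passed only in an alternative run and were not followed were not checked. Changes of sign in values that passed in neither were not counted. Of 2907 values followed with 1 library left out, 2519 kept their side of the threshold, 377 lost the call and 11 gained it. Under the other settings 1265 of 1370 kept their side, 103 lost the call and 2 gained it. Gains of genes that were not followed are missing from these numbers, so they are not a count of all gains. In fits of only the 2 groups compared, the number of the 36 genes past the threshold was 1 at ZT14, 5 at ZT18 and 5 at ZT22 for food, and 0 at ZT10 and 0 at ZT14 for CRE. With no filter on low counts it was 8 for food at ZT22, 0 for its variation among hours, 11 over the unfed hours, 5 for the CRE mean, 0 at ZT10, 1 at ZT14 and 0 for the variation of the CRE difference among times. DESeq2 called 3 genes for the variation of the food difference among hours. With the share of NR_046233 as a covariate, the number was 0 for CRE at ZT10, 0 for its variation among times and 3 for GFP livers at fed against unfed times. Without ZT10 and the libraries over 20% of that row, a setting chosen after seeing the data, it was 2 for the CRE mean and 0 for the GFP change. Without fed ZT14 replicate 1 and unfed ZT18 replicate 3, 0 genes passed for the variation of the food difference. In these settings the cause was not tested.

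With 1 library left out at a time the number ran from 4 to 13 for food at ZT18, 5 to 13 at ZT22, 0 to 6 for its variation among hours and 11 to 19 over the unfed hours. It was 0 for CRE at ZT10 without any one library, 0 to 2 at ZT14, 0 to 1 for the variation among times and 4 to 10 for the GFP change. Same-numbered libraries deviated together with correlations of -0.053 to 0.171 over 12 pairs of C57BL/6 libraries. Over 18 pairs of Nr3c1fl/fl libraries the correlations ran from -0.213 to 0.192, so the numbers were not taken as pairs. A replicate block gave 3 genes in place of 1 for the variation of the food difference and 0 in place of 1 for that of the CRE difference, and 14 for the food mean, as without it. The number of libraries limits single hours: the SE of the food difference of Psmd14 was 0.09 at ZT18 and 0.05 in the mean of 4 hours.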
